A study of Populus cathayana with 4 samples.

Results

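The leaf transcript table of the poplar Populus cathayana lists 41 gene models whose best protein hit is encoded by a plastid genome, among 10741 gene models with 10 or more tags summed over the 4 libraries. A gene model was taken as a member where its best database hit was an organelle reference record or carried the mark chloroplast, and did not name the mitochondrion. In all, 46 of 19100 gene models met the wording, and the 5 with fewer than 10 tags were left out. These 5 were described as rpoC1, rps3, atpA, cytochrome f and an unnamed tobacco reading frame, NitaMp080, with 2 to 8 tags each. The name of the last looks mitochondrial although it met the wording.

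Plastids keep a small genome of their own, which encodes core subunits of the photosystems, the cytochrome b6f complex, the ATP synthase and the NADH dehydrogenase-like complex. It also encodes part of the plastid ribosome and the bacterial-type plastid RNA polymerase that transcribes many of these genes, often as operons. The remaining subunits are encoded in the nucleus and imported. In plastids, unlike in the cytosol, a poly(A) tail is known to mark an RNA for breakdown, and libraries primed with oligo-dT take up polyadenylated RNA.

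The plants were cuttings of both sexes, and RNA came from the fourth fully expanded leaves after 100 days. Solar UV-B reached the plants either at its ambient level or reduced, so the 4 groups were reduced-UV-B males, ambient-UV-B males, reduced-UV-B females and ambient-UV-B females. RNA of 9 plants was pooled for the 1 library of each group. No value therefore has an error between replicates, and the lane of each library and its group cannot be told apart. The labels' protocols speak of 3 biological replicates for extraction, but no separate libraries of them were used here. A transcript was counted through a 17 bp tag beside its last NlaIII site, and no length correction applies.

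The listed gene models held 624926 to 722533 tags per library, which is 14.4% to 17.2% of the library totals printed in the file header, with the highest share in males under ambient UV-B. No gene model was listed with a count of 1, so a listed 0 can stand for 0 or 1 tag. A count of 3 corresponded to 0.683 to 0.713 CPM, that is, tags scaled to a library total of 1000000. The leaf label was checked against antenna proteins, which bind chlorophyll in the light-harvesting complexes and are encoded in the nucleus: 16 gene models described so summed to 7237 CPM in reduced-UV-B males, 8148 CPM in ambient-UV-B males, 7670 CPM in reduced-UV-B females and 6201 CPM in ambient-UV-B females. Runs of 4 values below follow this order of the libraries. Of the markers of other cell types, 7 laccases, which serve secondary walls, summed to 32.7, 22.8, 16.2 and 4.2 CPM. None of the phloem wordings matched. The wordings for rubisco small subunit and activase, further leaf markers, matched nothing either, so a missing match does not show that a tissue was absent. Tubulins, histones and B-type cyclins, taken for dividing cells, gave 31 gene models with sums of 135, 169, 207 and 159 CPM.

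The best hits of 38 of the 41 members named a plastid gene product, 26 different products in all, and 3 were unnamed reading frames. Repeats were common, since 7 products were named by more than 1 member and these took up 19 members: rpoC2 by 4, ycf1, psaA and psbC by 3 each, and ndhG, rpoA and psbD by 2 each. The best hit was a Populus protein for 30 members. The cellular component terms of 34 members named the plastid, the chloroplast or the thylakoid, and 3 members had no component term. E-values of the hits reached 3.13e-08, for one of the members named as rpoA, so that some gene models match only a piece of the named protein. Because the identifiers are those of a nuclear gene set, each tag may come from a plastid transcript or from a copy of plastid DNA in the nucleus, and these cannot be told apart. Members that share a product may also share tags and are not independent.

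Together the members held 25987, 18572, 20554 and 17721 tags, or 6068, 4414, 4679 and 4097 CPM. The total was highest in males under reduced UV-B. As a share of the listed tags this was 4.08% (exact binomial 95% interval 4.03% to 4.13%), 2.57% (2.53% to 2.61%), 3.11% (3.07% to 3.15%) and 2.84% (2.79% to 2.88%), intervals that cover counting error only and do not overlap. The lowest library depended on the scale: ambient-UV-B females by CPM, and ambient-UV-B males as a share of the listed tags and, at 2563 against 2819 CPM, also without rpl2. The ambient library was lower than the reduced one in both sexes, with a log2 ratio of the summed tags of -0.46 (95% interval -0.49 to -0.43) in males and -0.19 (-0.22 to -0.16) in females. A single member, rpl2, supplied 36.6%, 41.9%, 29.6% and 31.2% of the member tags. Without it the ratios were -0.59 in males and -0.23 in females. In pooled leaves, fewer plastid-rich cells, less plastid RNA per cell and a smaller polyadenylated part of that RNA cannot be told apart. Tags from copies of plastid DNA in the nucleus cannot be separated out either. Any part of leaf composition in these ratios was not tested.

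**Figure D1:**
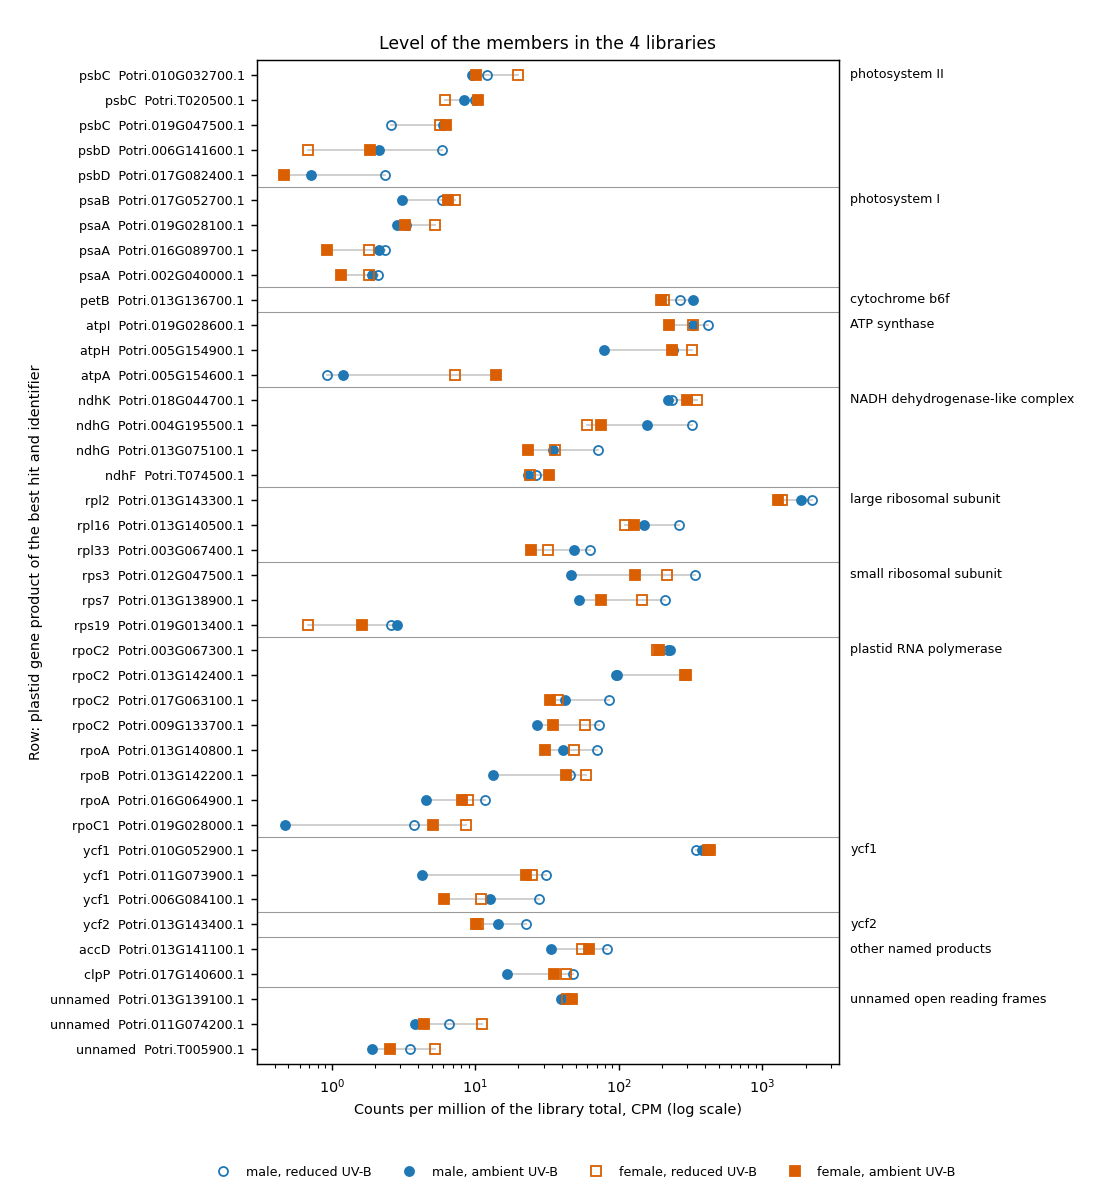
Level of 40 of the 41 members in CPM (log scale, horizontal) by member and function class (vertical), with blue circles for males, orange squares for females, open for reduced and filled for ambient UV-B. A library at 0 is not drawn, which applies to 1 member in females under reduced UV-B, and levels run from under 1 to 2224 CPM for rpl2 in males under reduced UV-B.

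The UV-B comparison asked which plastid transcripts differed between the ambient and the reduced library of the same sex. In males, 11 members fell and none rose, and the losses covered ribosomal proteins, RNA polymerase subunits, the ATP synthase ring subunit, ndhG, ycf1, accD and clpP. A member is said to have risen or fallen where the exact binomial test of its 2 counts, adjusted by Benjamini-Hochberg over the 10741 gene models, gave p below 0.001 and CPM differed at least 2-fold. Called lower were 26.8% of the members against 1.46% of all gene models, and called higher were 0 members against 2.46% of all. Among the 31 members with 100 or more tags, 35.5% were called lower, against 3.19% of all gene models at that depth. The median log2 ratio of the members, with 0.5 tags added to each count, was -0.76 in males against 0.11 over all gene models. Below 0 were 35 of 41 members (85.4%), against 40.2% of all gene models. Nearest to the 2-fold threshold were both ndhG members, at log2 ratios of -1.05 (Potri.004G195500.1) and -1.04 (Potri.013G075100.1) just inside, and rpoC2 (Potri.017G063100.1) at -1.0 just outside.

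In females no member rose or fell by the same rule, against 1.46% of all gene models called higher and 1.52% called lower. Of all gene models with 100 or more tags, 3.74% were called higher and 3.68% lower. By size alone, with no test, 3 members (7.32%) were at least 2-fold higher and 2 (4.88%) at least 2-fold lower. Of all gene models, 16.4% were higher and 16.4% lower by this measure. The female median was -0.19 against 0.02 over all gene models. Below 0 were 28 of 41 members (68.3%), against 47.7% of all gene models. Both ratios were below 0 for 27 members (65.9%) against 20.6% of all gene models, from comparisons that share no library. The difference between the sexes was tested on the 4 counts of each gene model: the female ratio exceeded the male one in 9 members against 1.03% of all gene models, and the reverse held for none against 2.02%. These tests compare pooled libraries and cover counting error only, so they do not show how the plants of a group vary. The median over all gene models moved from 0.11 to -0.10 in males when libraries were scaled by the edgeR TMM factors. Then 15 members were called lower, and the calls over all gene models changed from 264 higher and 157 lower to 117 and 232.

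**Figure D2:**
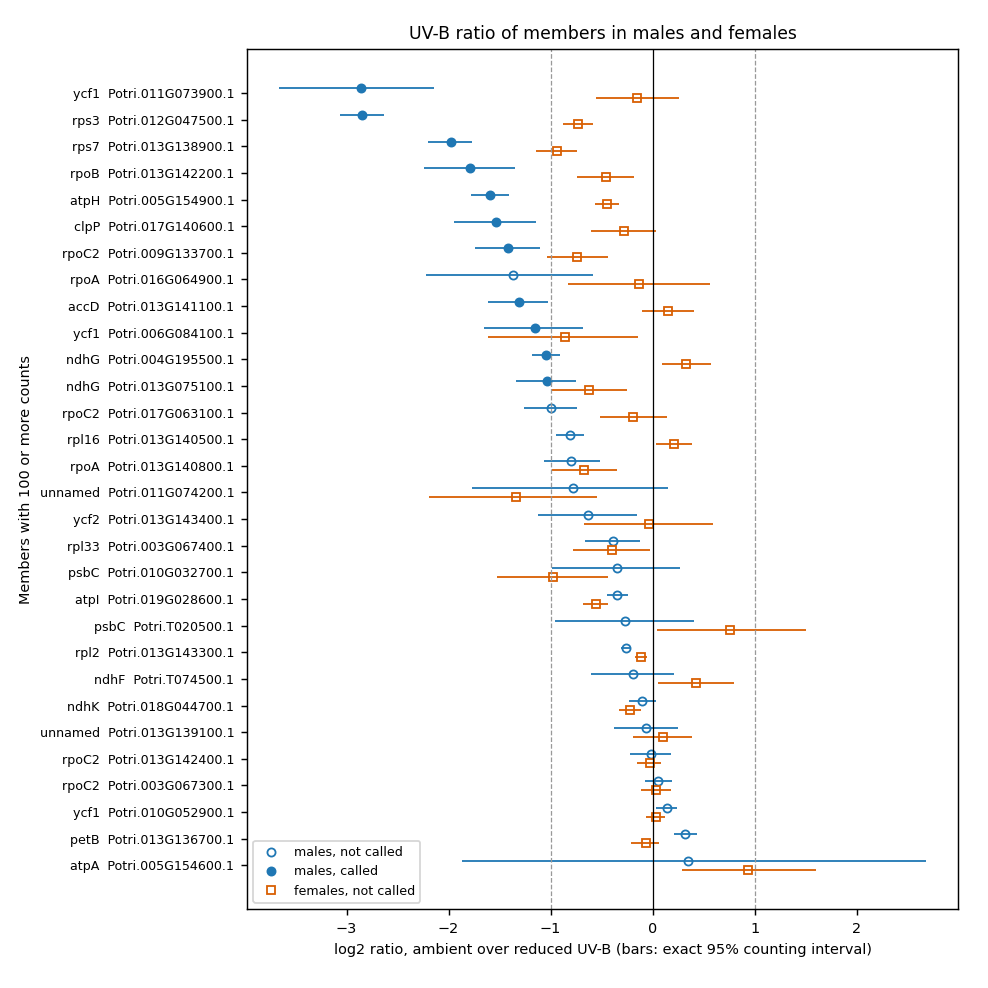
The log2 ratio of ambient over reduced UV-B (horizontal) for 30 of the 31 members with 100 or more tags (vertical), ordered by the male ratio, with blue circles for males, orange squares for females and bars for exact 95% counting intervals. Filled points are the 11 male calls, which run from -2.86 to -1.04, while no female point is filled.

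The small ribosomal subunit, which decodes the messenger RNA, had the lowest UV-B ratio of any function class in each sex. Its 4 members summed to 677, 195, 444 and 275 CPM, a log2 ratio of -1.79 (95% interval -1.91 to -1.68) in males and -0.69 (-0.79 to -0.58) in females. Males under reduced UV-B held the highest level and males under ambient UV-B the lowest. The protein rps3 (Potri.012G047500.1), which lies near the entry of the messenger RNA channel, had 1446, 197, 948 and 562 tags. It fell 7.21-fold in males (log2 ratio -2.85, interval -3.07 to -2.63, exact binomial test, adjusted p = 7.8e-227), and the female ratio was -0.73. The protein rps7 (Potri.013G138900.1), an assembly protein of the subunit head, had 897, 223, 631 and 324 tags and fell 3.95-fold in males, with a female ratio of -0.94. For both genes the male ambient library was the lowest of the 4, and the difference between the sexes passed the test, with a ratio of ratios of 2.12 for rps3 and 1.04 for rps7 on the log2 scale. The member rps19 had 11, 12, 3 and 7 tags and was not called.

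The large ribosomal subunit, which forms the peptide bond, was dominated by rpl2 (Potri.013G143300.1), a protein of its catalytic region and the member with the most tags in every library. It had 9523, 7790, 6081 and 5530 tags, so both male libraries were above both female ones. Its UV-B log2 ratio was -0.26 (interval -0.31 to -0.22) in males and -0.11 (-0.17 to -0.06) in females, short of a 2-fold change. The protein rpl16 (Potri.013G140500.1), which lies near the transfer RNA sites, had 1119, 628, 484 and 550 tags. Its UV-B ratio was -0.81 in males and 0.21 in females, neither past the threshold, and the test between the sexes passed with a ratio of ratios of 1.01 (0.78 to 1.24). The protein rpl33 had 272, 204, 142 and 106 tags, with ratios of -0.39 and -0.40 that were nearly the same in males and females. In land plants rpl2, rps19, rps3, rpl16 and rpoA are transcribed from the plastid ribosomal protein cluster. Their male ratios ran from -2.85 for rps3 to 0.15 for rps19. The rps19 ratio rests on 11 and 12 tags, with a counting interval from -1.16 to 1.47.

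The plastid RNA polymerase has its catalytic core from rpoA, rpoB, rpoC1 and rpoC2, and 8 members were named as one of these. They summed to 607, 453, 703 and 634 CPM, with a log2 ratio of -0.42 (-0.51 to -0.34) in males and -0.15 (-0.22 to -0.07) in females. The sums were higher in females than in males at both UV-B levels, but this rested on 1 member, rpoC2 Potri.013G142400.1. Without it, a choice made after the data were seen, they were 510, 357, 407 and 345 CPM, with a log2 ratio of females over males of -0.33 (-0.42 to -0.23) under reduced UV-B and -0.05 (-0.15 to 0.05) under ambient UV-B. The beta subunit rpoB (Potri.013G142200.1) had 197, 56, 260 and 186 tags, fell 3.46-fold in males (log2 ratio -1.79, exact binomial test, adjusted p = 4.1e-17) and had a female ratio of -0.46. The test between the sexes passed, with a ratio of ratios of 1.33 (0.80 to 1.86). The beta' subunit rpoC1 (Potri.019G028000.1) had 16, 2, 38 and 22 tags, so its male ratio of -2.97 has a counting interval from -6.14 to -0.89 and did not pass the test. Both rpoA members were below 0 in males without a call, at -0.80 for Potri.013G140800.1 (304, 172, 213 and 132 tags) and at -1.37 for Potri.016G064900.1 (50, 19, 39 and 35 tags).

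The 4 members named as rpoC2, the beta'' subunit, did not move together. One of them, Potri.009G133700.1, had 310, 114, 254 and 150 tags and fell 2.67-fold in males, with a female ratio of -0.74. Another, Potri.017G063100.1, had 364, 179, 167 and 144 tags, with male and female ratios of -1.0 and -0.19. The most abundant of the class, Potri.003G067300.1, had 941, 960, 815 and 822 tags and ratios of 0.05 and 0.03. The last, Potri.013G142400.1, had 418, 405, 1300 and 1250 tags and ratios of -0.02 and -0.03, so it varied between the sexes and hardly with UV-B.

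The ATP synthase, which makes ATP from the proton gradient across the thylakoid, had 3 members that summed to 655, 408, 656 and 471 CPM. The log2 ratio was -0.68 (-0.77 to -0.60) in males and -0.48 (-0.56 to -0.39) in females. The proton-carrying ring subunit atpH (Potri.005G154900.1) had 1014, 330, 1410 and 1016 tags, fell 3.02-fold in males (log2 ratio -1.59, exact binomial test, adjusted p = 9.2e-76) and had a female ratio of -0.45. Its male ambient library stood apart from the other 3, and the ratio of ratios was 1.14 (0.93 to 1.36). The stator subunit atpI (Potri.019G028600.1), the most abundant of the class, had 1788, 1383, 1438 and 963 tags and ratios of -0.35 in males and -0.56 in females, so here the female ratio was the lower one. The catalytic-head subunit atpA (Potri.005G154600.1) had only 4, 5, 32 and 60 tags, with the highest female UV-B ratio among members with at least 50 tags in the higher library (0.93, interval 0.29 to 1.60, not called). In land plants atpI, atpH and atpA belong to 1 operon, and here their male ratios were -0.35, -1.59 and 0.35. The atpA ratio rests on 4 and 5 tags, and its counting interval, -1.87 to 2.68, holds the values of atpI and atpH.

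The NADH dehydrogenase-like complex, which carries electrons around photosystem I, had 4 members that summed to 660, 435, 469 and 431 CPM. The male ratio was -0.60 (-0.69 to -0.52) and the female one -0.12 (-0.21 to -0.03). Both fallen members were named as ndhG, a membrane subunit. The first, Potri.004G195500.1, had 1397, 664, 263 and 325 tags, fell 2.07-fold in males and had a female ratio of 0.33 (0.09 to 0.57, not called). It was highest in males under reduced UV-B, both male libraries were above both female ones, and the ratio of ratios was 1.38 (1.10 to 1.65). The second, Potri.013G075100.1, had 306, 146, 158 and 101 tags, fell 2.06-fold in males and had a female ratio of -0.62. The most abundant member, ndhK (Potri.018G044700.1), had 1010, 924, 1532 and 1296 tags and ratios of -0.10 and -0.22, and ndhF had 114, 98, 106 and 140 tags. Both were within a 2-fold range in all comparisons.

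The cytochrome b6f complex, which links the photosystems, was represented by petB (Potri.013G136700.1), its cytochrome b6. It had 1133, 1390, 905 and 846 tags and the highest male UV-B ratio among members with at least 50 tags in the higher library, 0.32 (interval 0.21 to 0.43), while the female ratio was -0.07 (-0.21 to 0.06). The male ratio stayed under 2-fold and petB was not called. Members named as products of the photosystems, whose reaction centres capture the energy of light, had few tags. The wording rule left out a more abundant photosystem II product, psbE, at 492, 362, 308 and 406 CPM. Its male ratio of -0.44 (-0.54 to -0.34) and female ratio of 0.40 (0.29 to 0.50) had intervals that did not hold 0. The 5 photosystem II members summed to 32.9, 26.6, 32.6 and 29.1 CPM and the 4 photosystem I members to 13.5, 9.98, 16.2 and 11.8 CPM, with intervals of the male and female ratios that all held 0. The most abundant photosystem II member was psbC (Potri.010G032700.1), an inner antenna protein, with 52, 40, 88 and 44 tags. It had the lowest female UV-B ratio of the members with at least 50 tags in the higher library (-0.98, interval -1.53 to -0.44, not called). The other photosystem II members were 2 further psbC rows with 11 to 45 tags per library and 2 psbD rows, for the reaction-centre protein D2, with 0 to 25. In photosystem I, psaB (Potri.017G052700.1) had 25, 13, 32 and 28 tags, and the 3 psaA members, for its partner in the reaction centre, had 4 to 23 per library.

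**Figure D3:**
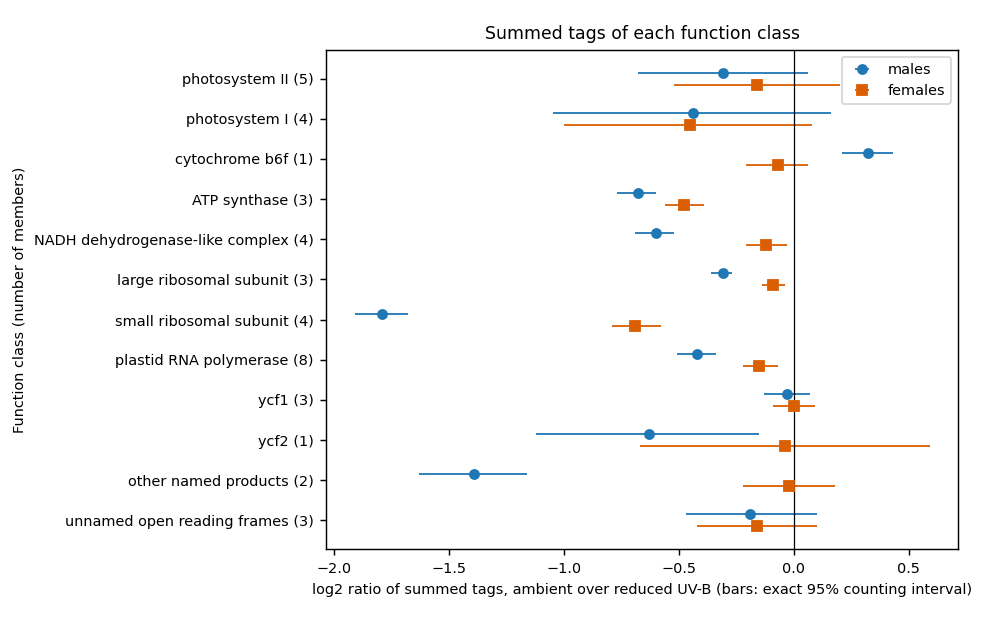
The log2 ratio of ambient over reduced UV-B (horizontal) for the summed tags of each function class (vertical, number of members in brackets), with blue circles for males, orange squares for females and bars for exact 95% counting intervals. In males the small ribosomal subunit stood at -1.79 and cytochrome b6f at 0.32, and the photosystem bars crossed 0 in both sexes.

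Among the other products, accD (Potri.013G141100.1), a subunit of the acetyl-CoA carboxylase of fatty acid synthesis, had 357, 141, 245 and 268 tags. It fell 2.49-fold in males (log2 ratio -1.31, exact binomial test, adjusted p = 7.9e-20), the female ratio was 0.15, and the ratio of ratios was 1.47 (1.08 to 1.86). The protease subunit clpP (Potri.017G140600.1), part of the main soluble protease of the plastid, had 207, 70, 189 and 153 tags and fell 2.91-fold in males, with a female ratio of -0.28 and a ratio of ratios of 1.26 (0.74 to 1.78). For both genes males under reduced UV-B were highest and males under ambient UV-B lowest, with both female libraries between them. Together they summed to 132, 50.2, 98.8 and 97.3 CPM.

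The 3 members named as ycf1, a protein of the import machinery in the inner envelope, differed from each other as the rpoC2 members did. The most abundant, Potri.010G052900.1, had 1475, 1594, 1850 and 1857 tags and ratios of 0.14 and 0.03. The smallest male ratio among members with at least 50 tags in the higher library belonged to Potri.011G073900.1, which had 133, 18, 109 and 97 tags and fell 7.26-fold (log2 ratio -2.86, interval -3.66 to -2.14). Its female ratio was -0.15, and the ratio of ratios was 2.71 (1.87 to 3.61). The last, Potri.006G084100.1, had 120, 53, 48 and 26 tags, fell 2.22-fold in males and had a female ratio of -0.86. Because the first of them holds most of the tags, the ycf1 sum was almost the same in the 4 libraries, at 404, 396, 457 and 458 CPM. The large protein ycf2 (Potri.013G143400.1) had 96, 61, 46 and 44 tags and no UV-B call. Of the unnamed reading frames, Potri.013G139100.1 had 177, 166, 193 and 204 tags, and the other two had 8 to 49 per library.

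The sex comparison asked which members differed between females and males at the same UV-B level. Under reduced UV-B, 2 members were higher in females, against 4.66% of all gene models, and 6 were lower, against 5.9%. The members' shares were 4.88% and 14.6%. Among members with 100 or more tags, 6.45% were higher and 16.1% lower, against 10.7% and 12.7% of all gene models at that depth. At like depth the shares of lower calls were thus close. Higher in females were rpoC2 (Potri.013G142400.1), 3.03-fold with a log2 ratio of 1.60 (1.44 to 1.76), and atpA, 7.80-fold with 2.96 (1.47 to 4.92) on 4 against 32 tags. Lower in females were ndhG (Potri.004G195500.1) at -2.45 (-2.64 to -2.25), ycf1 (Potri.006G084100.1) at -1.36, rpl16 at -1.25, rpoC2 (Potri.017G063100.1) at -1.16 and ycf2 at -1.10. The sixth was psbD (Potri.006G141600.1), whose ratio of -3.10 rests on 25 tags in males and 3 in females (counting interval -5.47 to -1.38). The second psbD member, Potri.017G082400.1, had 10, 3, 0 and 2 tags and was not called. The median of the members was -0.34 against -0.04 over all gene models.

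Under ambient UV-B, 8 members were higher in females, against 3.66% of all gene models, and 1 was lower, against 7.69%. The members' shares were 19.5% and 2.44%. Among members with 100 or more tags, 22.6% were higher and 3.23% lower, against 7.13% and 16.8% of all gene models at that depth. The rpoC2 member Potri.013G142400.1 and atpA were again higher in females, at 1.59 and 3.55. The remaining 6 were ycf1 (Potri.011G073900.1) at 2.39, rpoB at 1.69, atpH at 1.58, rps3 at 1.47, clpP at 1.09 and rpoC1 at 3.42, the last on 2 tags in males (counting interval 1.40 to 6.55). The member lower in females was again ndhG (Potri.004G195500.1), at -1.07, and this call ended under each of the other scalings of the libraries, where its ratio was -0.82 to -0.88. The median of the members was 0.17 against -0.11 over all gene models, which moved to 0.08 with the TMM factors. Of the 8 members higher in females, rps3 had a log2 ratio below 0 under reduced UV-B, at -0.65 (-0.77 to -0.53, under 2-fold), while the intervals of ycf1 (-0.32, from -0.70 to 0.05) and clpP (-0.17, from -0.46 to 0.12) held 0. The summed tags of all members had a ratio of females over males of -0.38 under reduced and -0.11 under ambient UV-B, and the latter was 0.14 without rpl2 and 0.14 when scaled by the listed sum.

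**Figure D4:**
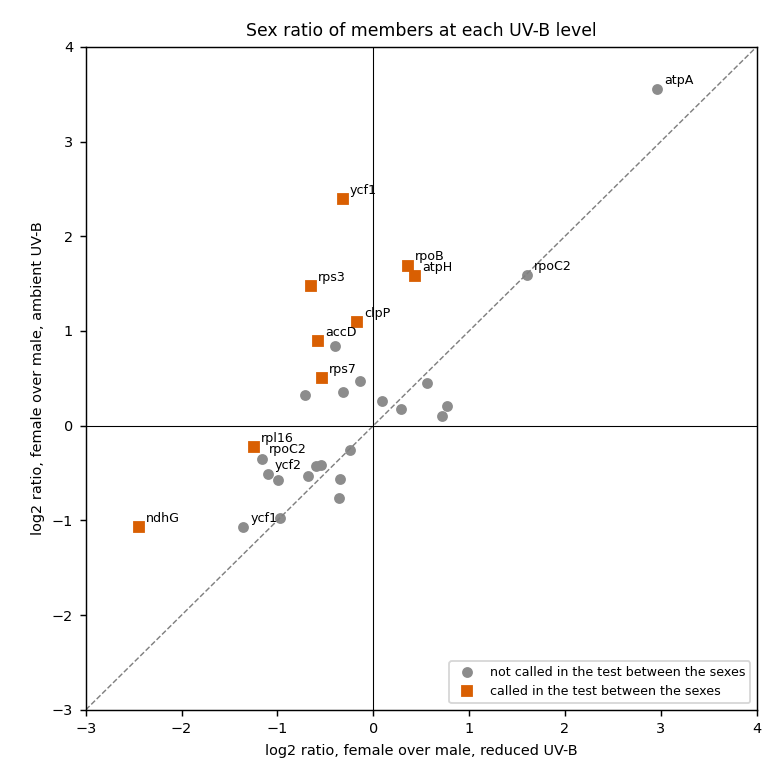
The log2 ratio of females over males under reduced UV-B (horizontal) and under ambient UV-B (vertical) for the 31 members with 100 or more tags, with the dashed line where both are equal. Orange squares are the 9 members called in the test between the sexes, all above the line, and rpoC2 at 1.60 and 1.59 lies on it.

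The members were spread over many chromosome and scaffold codes in the identifiers, and 12 of the 41 carried the code 013. Of these, 11 lay in 1 stretch of identifiers, from Potri.013G136700 (petB) to Potri.013G143400 (ycf2), which also held 4 gene models described as matK, psbE, ndhK and rps2 without meeting the rule, and 6 with other or no descriptions. This stretch was picked after the table was seen. The male median log2 ratio was -0.62 for its 11 members, with 3 called lower, and the 30 members elsewhere had a median of -0.80 with 8 called lower. The 4 gene models with plastid product names had a median of -1.09 with 2 called lower, and the 6 others had a median of -0.08 with none. In females the medians were -0.07, -0.25, -0.38 and -0.04, with no call in any of these groups. Which copy the tags came from was not tested.

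**Figure D5:**
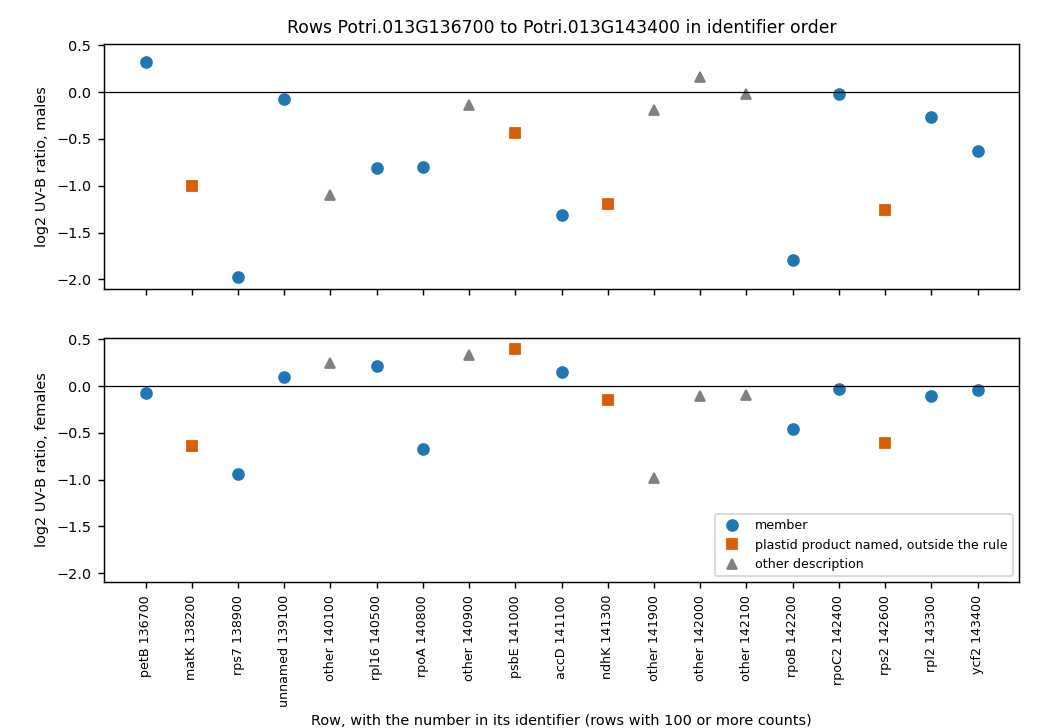
The log2 ratio of ambient over reduced UV-B in males (upper panel) and females (lower panel) for gene models of the stretch with 100 or more tags, 1 left out, in identifier order, with members as blue circles, other plastid product names as orange squares and other descriptions as grey triangles. In males the values run from -1.98 for rps7 to 0.32 for petB.

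Nuclear genes for plastid proteins were taken by wording outside the members and are set against the same shares of all gene models, in males 2.46% higher and 1.46% lower, in females 1.46% and 1.52%. Of the 16 antenna gene models none was called in males (median -0.01), and 2 were called lower in females (median -0.65), against the member medians of -0.76 in males and -0.19 in females. These antenna medians weigh gene models with few tags like abundant ones. The antenna sum went from 7237 to 8148 CPM with ambient UV-B in males and from 7670 to 6201 CPM in females. A thylakoid component term was carried by 168 gene models outside the members, a list from which antenna proteins and plastocyanin were not taken out. Of these, 5 rose and 6 fell in males (median 0.24), and 2 rose and 6 fell in females (median -0.13). The 15 pentatricopeptide repeat proteins, a family that binds organelle RNA, had no call in either sex, with medians of 0.11 and 0.25. They summed to only 30.6, 36.8, 35.5 and 37.9 CPM. Most had too few tags for any but a large ratio to pass, so the lack of calls says little. Plastocyanin, the electron carrier between cytochrome b6f and photosystem I, was described once, at 281, 465, 687 and 672 CPM, and was not called for UV-B. A nuclear gene model described as the 50S protein L22 stood at 2.3, 0.5, 2.3 and 2.5 CPM and was not called. The descriptions held no match for rubisco small subunit, rubisco activase, sigma factors or further photosystem subunits, so these were not analysed here. Among the gene models tested, the only one taken as having a mitochondrion-encoded best hit was nad7 of the respiratory complex. It had 28, 72, 97 and 66 tags and rose in males (log2 ratio 1.39).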

How the data were processed

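Groups were taken from the labels, with 1 library each. The deposited table holds raw counts of tags for each gene model beside values headed TPM. The latter are CPM, scaled by the library total in the column header without length correction, per the file headers, and were recomputed from the counts within 0.0051. The sources used here do not give the tag-to-gene assignment or the genome build, and no genome was used.

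Gene models with fewer than 10 counts were left out. Pairs of libraries were compared with an exact two-sided conditional binomial test given the header totals, and the sexes' UV-B ratios with an exact noncentral hypergeometric test of 4 counts, both adjusted by Benjamini-Hochberg over 10741 gene models (scipy 1.17.1, numpy 2.4.6, pandas 2.3.3, Python 3.11.15). Called means adjusted p below 0.001 and 2-fold. Medians used 0.5 added counts. Intervals are exact at 95% and cover counting error only. PCR-copied tags are not independent molecules. Tests were first run on simulated counts.

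By plan, members called in any of the 5 comparisons and the most abundant of each class are named. So are the highest and lowest UV-B ratio in each sex among members with at least 50 counts in the higher library. Further members are named where their class is described. Members, lists and classes were chosen with earlier results of these data known. Alternatives covered scaling (edgeR 4.0.16 TMM, DESeq2 1.42.0 size factors, sum of listed counts), filters, thresholds and membership. The values of 1 member are not reported here by name.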

Additional observations from a re-analysis of the deposited data

Results flagged for a closer look

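The following 9 members stood out because their UV-B ratio differed between the sexes in the exact test of the 4 counts. In each the female log2 ratio was above the male one, in 1 pooled library per group. The ratio of ratios, on the log2 scale, was 2.71 for ycf1 (Potri.011G073900.1), 2.12 for rps3 (Potri.012G047500.1), 1.47 for accD (Potri.013G141100.1) and 1.38 for ndhG (Potri.004G195500.1). It was 1.33 for rpoB (Potri.013G142200.1), 1.26 for clpP (Potri.017G140600.1), 1.14 for atpH (Potri.005G154900.1), 1.04 for rps7 (Potri.013G138900.1) and 1.01 for rpl16 (Potri.013G140500.1). For accD, ndhG and rpl16 the male ratio was below 0 and the female ratio above it (0.15, 0.33 and 0.21, none called). For the other 6 both ratios were below 0.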

How the results depend on the processing

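No call of a member turned its direction in the runs where single members were followed. These were the other scalings of the libraries, the count filters, an adjusted p of 0.05 and organelle reference records alone. Each other scaling kept 36 of the 37 calls. Single calls were not followed where members of 1 product were summed. The cause of the changes below was not tested. Scaling by the listed sum, TMM factors or size factors moved the male median to -0.97, -0.97 and -0.96, the median between the sexes under ambient UV-B to 0.42, 0.36 and 0.36, and that of the ratio of ratios to 0.85, 0.79 and 0.80. It left 0 members lower in females under ambient UV-B. Over all gene models the male calls were 264 higher and 157 lower as reported, 117 and 230, 117 and 232, and 125 and 225 under these scalings. Under ambient UV-B they were 393 and 826, then 599 and 576, 551 and 624, and 554 and 623, and for the ratio of ratios 111 and 217, then 169 and 105, 157 and 126, and 161 and 118. With 2-fold alone, 1 member was higher in males (against 17.4% of all gene models), and 3 were higher and 2 lower in females (16.4% and 16.4%). Between the sexes, 4 were higher in females under reduced UV-B (20.2%) and 3 lower under ambient UV-B (26.7%). The ratio of ratios was past 2-fold upward in 15 (21.3%) and downward in 1 (25.2%). At an adjusted p of 0.05, 1 member fell in females (against 3.82% of all gene models) and 2 were lower in females under ambient UV-B (15.2%). With look-alike gene models added, 52 in all, 14 were lower and 2 higher with UV-B in males (1.46% and 2.46% of all gene models). Then 4 were higher in females under reduced UV-B (4.66%) and 2 lower in females under ambient UV-B (7.69%). Summing members of 1 product left 29 entries, of which 7 were lower in males (against 1.43% of all, median -0.62). Of these entries, 1 was higher in females under reduced UV-B (4.65%, median -0.17) and 0 lower in females under ambient UV-B (7.69%). Organelle reference records alone gave medians of -0.62 in males and 0.42 for the ratio of ratios. The summed tags had ratios of -0.67 in males and -0.13 in females over the listed sum, and -0.59 and -0.23 without rpl2. Their ratio of females over males, -0.38 under reduced UV-B, was -0.22 without rpl2, and under ambient UV-B it turned from -0.11 to 0.14 without rpl2 and 0.14 over the listed sum, and was -0.05 with look-alikes. The ratio of the RNA polymerase sum turned from 0.21 to -0.33 under reduced and from 0.48 to -0.05 under ambient UV-B without Potri.013G142400.1, an alternative chosen after seeing the data. The medians over all gene models turned too, in males from 0.11 to -0.10, -0.10 and -0.09, between the sexes under ambient UV-B from -0.11 to 0.14, 0.08 and 0.08, and for the ratio of ratios from -0.17 to 0.09, 0.03 and 0.04. No paired analysis was possible because each group had 1 library. Members with under 50 tags allow only large ratios to pass.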

Other observations

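Outside the wording rule, 11 gene models were described as a product that plastid genomes encode, and all of them are given here. In males, rps2 fell (909, 372, 659 and 426 tags, log2 ratio -1.26), as did rbcL, the large subunit of the carbon-fixing enzyme rubisco (Potri.T005800.1, with 246, 102, 607 and 368 tags, -1.24), and a gene model named as ndhK (Potri.013G141300.1, with 271, 116, 346 and 306 tags, -1.20). For the last the ratio of ratios between the sexes was 1.04 and passed the test. The only rises were those of rps3 (Potri.002G206800.1, with 53, 106, 48 and 62 tags) and psaA (Potri.002G211800.1, with 57, 114, 46 and 51 tags), each with a male log2 ratio of 1.03. The product name rps3 was thus found on a member that fell in males and on a gene model outside the rule that rose. Not called for UV-B were psbE (2105, 1525, 1354 and 1754 tags), matK (140, 69, 219 and 138), psbD (80, 65, 170 and 130), ndhB (126, 81, 117 and 64), the second rbcL (43, 21, 28 and 21) and rpl32 (6, 9, 2 and 0). The psbE ratio was -0.44 in males and 0.40 in females, and its ratio of ratios of 0.84 was not called. Between the sexes, rbcL (Potri.T005800.1) was higher in females under reduced and ambient UV-B, at 1.27 and 1.81. Also higher in females were psbD under reduced UV-B, at 1.05, and ndhK under ambient UV-B, at 1.36. The psaA gene model was lower in females under ambient UV-B, at -1.20. Of all gene models, 4.66% were higher under reduced UV-B, and 3.66% higher and 7.69% lower under ambient UV-B.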
